A study of Mus musculus with 6 samples.

Results

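The mitochondrial respiratory chain and ATP synthase are assembled from mitochondrially encoded proteins and a larger number of subunits encoded in the nucleus. The nuclear subunit genes were taken here as the protein-coding mouse genes whose symbols start with Ndufa, Ndufb, Ndufc, Ndufs, Ndufv, Uqcr, Cox4 to Cox8 or Atp5, without pseudogenes and without the Ndufaf assembly factors. The rule used names and no measured value, and it found 80 of the 24379 genes in the count table: 36 of complex I, 8 of complex III, 19 of complex IV and 17 of complex V. Ndufa4 and its relative Ndufa4l2 carry complex I names but were placed with complex IV, where the Ndufa4 protein is now assigned. Cox8c fits the rule by name but is absent from the count table, so it could not be analysed.

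The cells were RAW264.7, a macrophage-like mouse line derived from a virus-induced tumour, in 6 RNA sequencing libraries. In the HFCS group, 3 libraries came from cells treated with high-fructose corn syrup, at 140 mM by the sample titles and 170 mM by the source names. The WT group holds 3 libraries of the same line labelled WT, and what these cells received in place of syrup is not stated in the labels. All samples carry a time of 18 h, and all carry the same growth text, which names the syrup, so the groups rest on titles and treatment labels. Both groups are 1 tumour line, with no primary macrophages beside it. The labels do not say whether replicates are separate cultures, so the spread behind each p-value is that of libraries and may be technical only.

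In the respiratory chain, complex I takes electrons from NADH, complex III passes them from ubiquinol to cytochrome c, and complex IV gives them to oxygen. All of these complexes move protons across the inner membrane, and complex V, the ATP synthase, uses their return to make ATP. In macrophages the chain is known to be remodelled on inflammatory activation, and its complexes are also a source of reactive oxygen species.

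The libraries held 13108485, 14948794 and 15340255 counts in HFCS and 14840315, 14101303 and 14530130 counts in WT. All 8 macrophage markers were expressed and all were called, 6 higher in HFCS, such as Fcgr3 (log2 fold change 1.68) and Adgre1 (1.04), and 2 lower, Csf1r (-0.67) and Cd68 (-0.42). They had summed levels of 2136 to 2167 CPM (counts scaled to a common library size) in HFCS and 1840 to 1919 CPM in WT. Epithelial and lymphocyte markers summed to less than 1 CPM in each library, and fibroblast markers to 0.850 to 1.78 CPM in HFCS and 0.208 to 0.881 CPM in WT. Genes were tested with edgeR's quasi-likelihood test, and a gene was called higher or lower at a Benjamini-Hochberg adjusted p under 0.05 over 14360 tested genes. Of all tested genes, 22.4% were called higher and 22.5% lower in HFCS, or 44.9% in all, and with library size alone as scaling 27.7% were higher and 18.3% lower. In bulk RNA, fewer cells that use a gene and less of its RNA per cell cannot be told apart.

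Of the 80 subunit genes, 75 passed the filter on low counts and were tested. Among these, 18 (24.0%) were lower in HFCS, close to the background share for all genes, and 7 (9.33%) were higher, below it. The order for higher genes was not kept in every setting: without WT replicate 1 their share lay above the background. The median log2 fold change of the tested subunit genes was -0.08, against -0.00 for all tested genes, and the median size of change was 0.244 against 0.332. Changes of at least 1.5-fold were called for 3 subunit genes that were higher and 4 that were lower, where 10.5% and 11.7% of all genes passed in those directions. All HFCS libraries lay above all WT libraries for 8 subunit genes and below them for 23, where 27.4% and 27.2% of all genes did so, or 54.5% in either direction. Complex I had 4 genes called higher and 5 lower of 36, with a median log2 fold change of 0.11, which was -0.03 and -0.04 without WT replicate 2 or 3. Complex III had 1 higher and 4 lower of 8 with a median of -0.29 (-0.16 with the length and GC trend removed and -0.19 without WT replicate 1). Complex IV had 1 higher and 4 lower of 14 with a median of -0.11 (0.02 without WT replicate 1 and 0.00 with the length and GC trend removed). Complex V had 1 higher and 5 lower of 17 with a median of -0.18, which was -0.05 without HFCS replicate 3 and -0.06 without WT replicate 1.

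**Figure D1:**
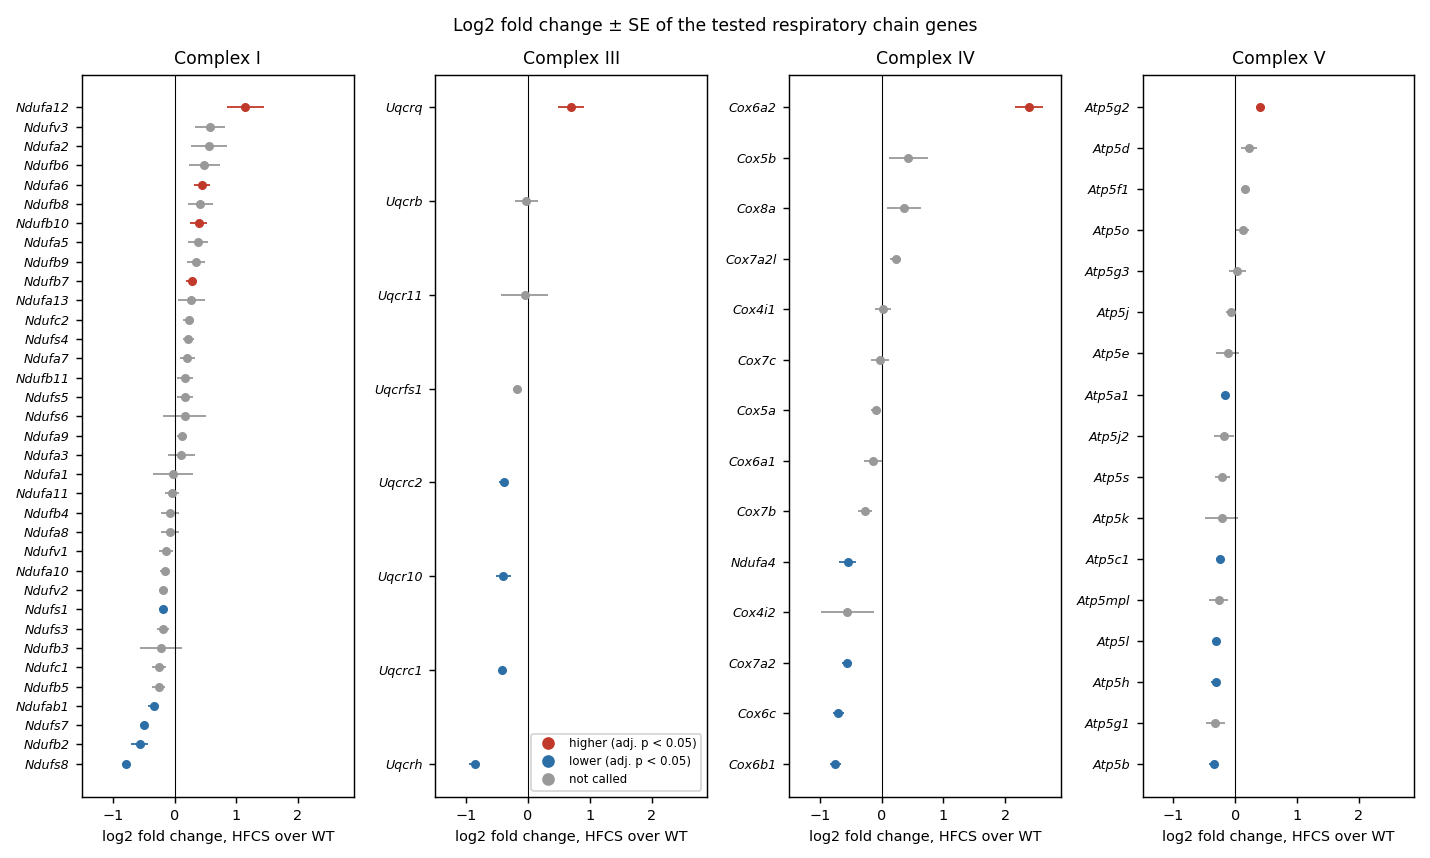
Log2 fold change (HFCS over WT) with its standard error for 74 of the 75 tested genes, 1 panel per complex, sorted from highest to lowest. Red and blue points are genes called higher (7) or lower (18) in HFCS, and grey points were not called. In complexes III and V most points lie left of 0, while in complex I the points are spread over both sides.

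The count of higher genes was unstable, at 3 to 26 over the 16 alternatives, and the count of lower genes moved less, at 14 to 23. HFCS replicate 3 was the lowest HFCS library in 56 of the 75 tested subunit genes (74.7%), against 37.4% of all tested genes. WT replicate 1 was the highest WT library in 56 of 75 (74.7%), against 38.4% of all tested genes. Its median log2 difference from the mean of the other WT libraries was 0.36 over the subunit genes and -0.00 over all genes. Without HFCS replicate 3, 11 subunit genes were called higher and 16 lower, at backgrounds of 19.6% and 18.5% of all genes. Without WT replicate 1, 26 of 75 were higher and 20 of 75 lower, where 26.3% and 25.2% of all genes were. There the share of higher subunit genes lay above that of all genes. Leaving out any other library gave 3 higher and 14 to 17 lower, at 17.7% to 18.9% and 16.8% to 18.8% of all genes. Removing each library's trend on gene length and GC content gave 20 higher and 21 lower, at 28.1% and 23.1% of all genes.

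Complex I accepts electrons through its N module, hands them to ubiquinone in its Q module and pumps protons in its membrane arm. The 7 nuclear core subunits, which between them hold the flavin and the iron-sulphur clusters, all had negative log2 fold changes with all libraries and TMM. Their median was -0.19, and 3 of them (42.9%) were called lower. Ndufv1 was at 0.02 without WT replicate 1, and Ndufv2 at 0.04 with the length and GC trend removed. The 29 accessory subunits had a median of 0.17, with 4 (13.8%) called higher and 2 (6.90%) lower. Over all tested genes, 22.4% were called higher and 22.5% lower. The difference between core and accessory subunits was not tested. By module, 2 genes were higher and 1 lower of 10 in the N module, 2 were lower of 6 in the Q module, and 2 were higher and 2 lower of 20 in the membrane arm.

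Ndufs8, a core subunit that carries iron-sulphur clusters on the path to ubiquinone, had 96.9, 93.7 and 98.8 CPM in HFCS replicates 1 to 3 and 166, 171 and 161 CPM in WT replicates 1 to 3. Every HFCS library lay far below every WT library. Its log2 fold change was -0.78 ± 0.06 (SE, n = 3 each, edgeR adjusted p = 7.16e-06), the lowest in complex I. Ndufs7, the core subunit with the last iron-sulphur cluster before ubiquinone, had 70.5, 70.6 and 66.6 CPM in HFCS and 97.7, 97.3 and 98.4 CPM in WT. The groups did not overlap, and the log2 fold change was -0.50 ± 0.07 (edgeR adjusted p = 0.000164). Both genes were called lower in all 16 alternative analyses. Ndufs1, the largest iron-sulphur subunit of the N module, was called lower by a small margin, with a log2 fold change of -0.19 and an edgeR adjusted p of 0.0467, and 7 of the 16 alternatives lost that call. Ndufs3, Ndufv1 and Ndufv2 had log2 fold changes of -0.19, -0.14 and -0.18 and were not called.

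Among the accessory subunits called lower, Ndufb2, a small membrane-arm protein, had 8.39, 8.18 and 8.29 CPM in HFCS and 11.03, 12.4 and 13.4 CPM in WT. The groups did not overlap, at a log2 fold change of -0.57 ± 0.13 (SE, n = 3 each, edgeR adjusted p = 0.00565), and the call held in all 16 alternatives. Its level per kilobase of exon was among the lowest of the tested subunit genes, at 1.47 CPM per kilobase in HFCS and 2.18 in WT, and its exons share 146 bp with Braf on the opposite strand. Ndufab1, the acyl carrier protein that is also used in mitochondrial fatty acid synthesis, had a log2 fold change of -0.34. Ndufa6, which binds that carrier protein, was called higher at 0.45, and the membrane-arm subunits Ndufb10 and Ndufb7 at 0.39 and 0.28. Each of these 3 higher calls was lost when any of 4 or 5 single libraries was left out.

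The highest log2 fold change in complex I belonged to Ndufa12, an accessory subunit on the N module, and its value depended on whether the counts of a near-identical pseudogene were added. Ndufa12 had 15.1, 24.2 and 12.2 CPM in HFCS and 9.43, 9.47 and 4.45 CPM in WT. All HFCS libraries lay above all WT libraries, at a log2 fold change of 1.14 ± 0.30 (SE, n = 3 each, edgeR adjusted p = 0.00988). The pseudogene Gm15920 at chr5:130188395-130188796 (+ strand, mm10) matches 397 of 399 aligned coding bases of Ndufa12, which lies at chr10:94198720-94221443 (+ strand). Gm15920 had 31.7, 22.7 and 23.0 CPM in HFCS and 44.7, 27.7 and 29.4 CPM in WT, more than Ndufa12 in 5 of the 6 libraries. Summed over both, the level was 43.0 ± 6.69 CPM in HFCS and 41.7 ± 10.8 CPM in WT (SD, n = 3 each). The summed log2 fold change was 0.04 (edgeR adjusted p = 0.865), and the 2 groups overlapped. Coding bases 49 to 168 of both are shown to make the likeness visible, with the base that differs in capitals.
Ndufa12: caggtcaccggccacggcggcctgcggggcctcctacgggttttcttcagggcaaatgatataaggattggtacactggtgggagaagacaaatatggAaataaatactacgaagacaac
Gm15920: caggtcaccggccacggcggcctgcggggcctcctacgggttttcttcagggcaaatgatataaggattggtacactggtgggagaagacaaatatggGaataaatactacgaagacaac

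**Figure D2:**
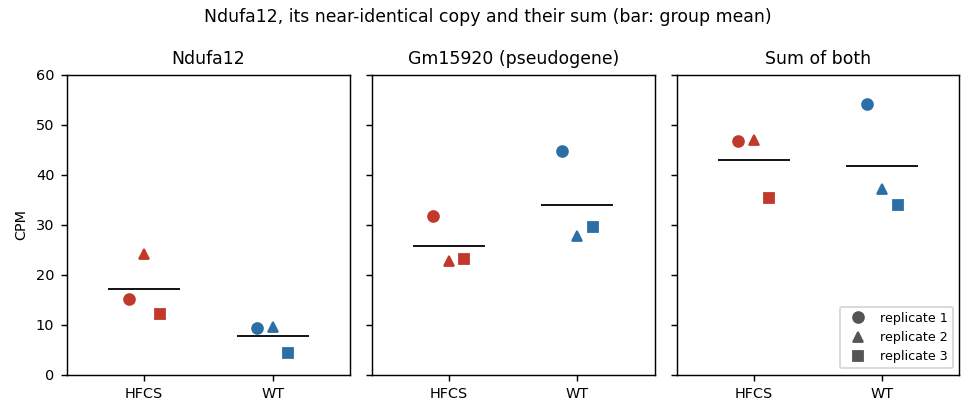
CPM of Ndufa12, of its near-identical pseudogene Gm15920 and of their sum in each library, with bars at group means. Ndufa12 is higher in the 3 HFCS libraries, and the sum overlaps between the groups, at means of 43.0 CPM in HFCS and 41.7 CPM in WT.

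Such copies were present for 21 of the 80 genes, counting genomic genes at least 95% identical over at least 80% of the coding sequence. Summing counts over copies ended the call of Ndufa12 and no other call. For Atp5l, Ndufab1 and Atp5h the copies held 40.6%, 34.9% and 18.9% as many counts as the gene itself, and their calls held in the sum.

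Complex III passes electrons through cytochrome b, which is mitochondrially encoded, to the Rieske protein and cytochrome c1. Uqcrh, the hinge protein that sits beside cytochrome c1, had 68.6, 72.3 and 60.6 CPM in HFCS and 136, 119 and 112 CPM in WT. The highest HFCS library was well below the lowest WT library. Its log2 fold change of -0.87 ± 0.09 was the lowest of all 75 subunit genes (SE, n = 3 each, edgeR adjusted p = 4.14e-05), and it was called lower in all 16 alternatives. Uqcrc1 and Uqcrc2 are the large core proteins on the matrix side. Uqcrc1 had 240, 234 and 227 CPM in HFCS and 313, 316 and 308 CPM in WT, a log2 fold change of -0.42 ± 0.06 (edgeR adjusted p = 0.000276). Its libraries were tight within each group and well apart between them. Uqcrc2 had a log2 fold change of -0.39 and the small subunit Uqcr10 one of -0.40, and both were called lower.

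Uqcrq, a small subunit near cytochrome b, was the gene of complex III called higher. It had 184, 186 and 141 CPM in HFCS and 150, 83.7 and 80.5 CPM in WT. WT replicate 1 lay above HFCS replicate 3, so the groups overlapped. The log2 fold change was 0.70 ± 0.21 (SE, n = 3 each, edgeR adjusted p = 0.0186). Without WT replicate 1 it was 1.05 (edgeR adjusted p = 1.02e-06). DESeq2 and leaving out HFCS replicate 1 or 2 or WT replicate 2 or 3 each ended the call, at adjusted p-values up to 0.0859. The Rieske protein gene Uqcrfs1 had a log2 fold change of -0.18 (edgeR adjusted p = 0.0532), and Uqcrb and Uqcr11 had -0.03 and -0.06, none of them called.

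Complex IV holds its copper and haem centres in mitochondrially encoded subunits, with nuclear subunits around them. Cox6b1, which lies on the outer face where cytochrome c docks, had 56.0, 57.9 and 50.5 CPM in HFCS and 100, 84.1 and 92.1 CPM in WT. No HFCS library reached the lowest WT library. The log2 fold change was -0.75 ± 0.09 (SE, n = 3 each, edgeR adjusted p = 7.45e-05). Cox6c, a membrane subunit, had 66.7, 67.8 and 62.2 CPM in HFCS and 120, 105 and 94.4 CPM in WT, a log2 fold change of -0.70 ± 0.09 (edgeR adjusted p = 0.000159). Its groups did not overlap either, although its exons share 250 bp with Vps13b on the other strand, which had a log2 fold change of -0.08. Both calls held in all 16 alternatives. Ndufa4 had 63.0, 65.0 and 49.3 CPM in HFCS and 103, 83.4 and 72.5 CPM in WT, a log2 fold change of -0.55 ± 0.14 (SE, n = 3 each, edgeR adjusted p = 0.00756). The groups were apart, but with the length and GC trend removed the log2 fold change was -0.23 and was not called (adjusted p = 0.246).

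**Figure D3:**
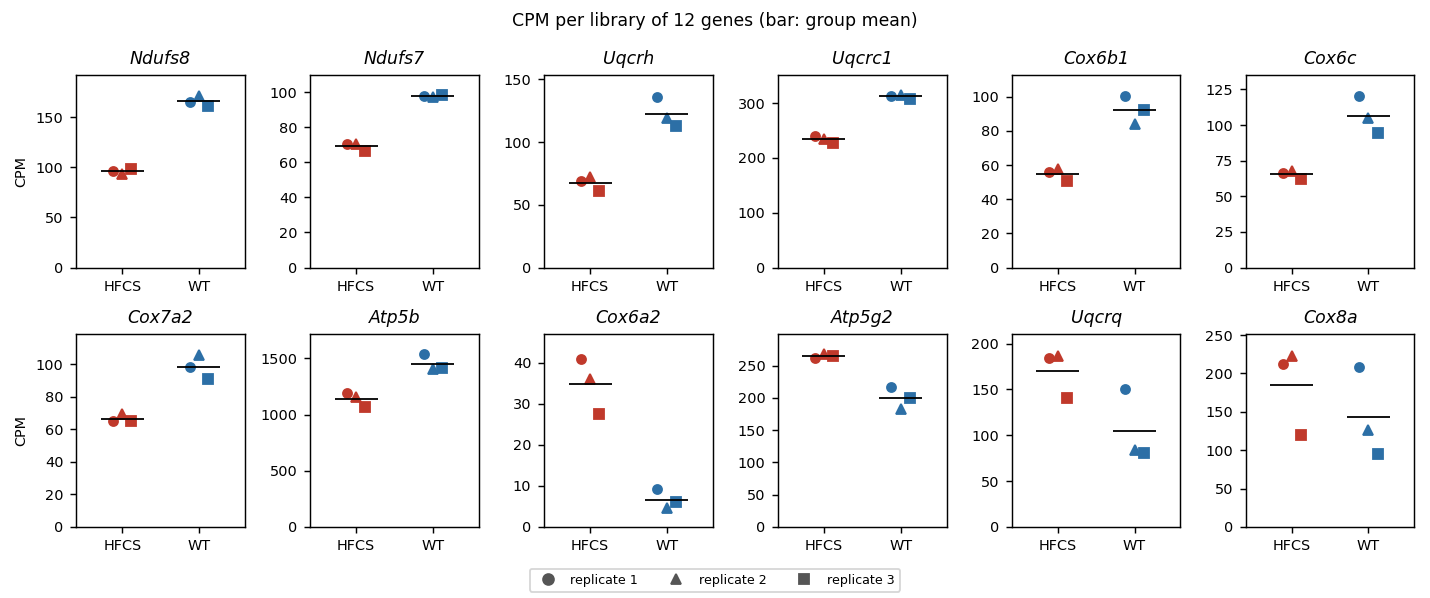
CPM in each library (y axis, from 0) for 12 genes, with HFCS left and WT right and bars at group means. For Ndufs8, Ndufs7, Uqcrh, Uqcrc1, Cox6b1, Cox6c, Cox7a2 and Atp5b all HFCS points lie below all WT points, for Cox6a2 and Atp5g2 above them, and for Uqcrq and Cox8a WT replicate 1 (circle) lies among the HFCS points.

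Several complex IV subunits and subunit c of complex V have more than 1 gene, and some of these isoforms are known from heart and skeletal muscle. Cox6a2, the muscle form of subunit 6a, had 40.9, 36.0 and 27.4 CPM in HFCS and 9.16, 4.70 and 6.07 CPM in WT. The lowest HFCS library was far above the highest WT library. The log2 fold change of 2.38 ± 0.22 was the highest of the 75 subunit genes (SE, n = 3 each, edgeR adjusted p = 1.66e-05), and it was called in all 16 alternatives. Its widely expressed partner Cox6a1 had 201, 193 and 141 CPM in HFCS and 239, 186 and 161 CPM in WT, with overlapping groups and a log2 fold change of -0.14 (edgeR adjusted p = 0.501). Per kilobase of exon, Cox6a2 made up 16.8 ± 0.628% of the pair in HFCS and 3.36 ± 0.708% in WT (SD, n = 3 each).

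Cox6a2, at chr7:128205435-128206387 (- strand, mm10), lies wholly within the span of Itgad on the opposite strand, and 70 bp of exon are shared. Itgad had 0.831 ± 0.0789 CPM in HFCS and 0.142 ± 0.00414 CPM in WT (SD, n = 3 each), with a log2 fold change of 2.48 (edgeR adjusted p = 0.00258). The labels give no strand setting for the counting, so reads of these genes cannot be told apart where they overlap. Itgad's level was far below that of Cox6a2 in both groups. Of the 4 muscle markers, Tnnt2 had 5.38 ± 0.650 CPM in HFCS and 2.0 ± 0.729 CPM in WT (log2 fold change 1.42, edgeR adjusted p = 0.00144). Ckm was not called, and Myh7 and Acta1 had at most 3 counts in either group. Their summed level was 5.62 to 7.21 CPM in HFCS and 2.72 to 5.48 CPM in WT, and their part in the Cox6a2 value was not tested.

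Cox7a2, the widely expressed form of subunit 7a, had 65.0, 69.7 and 65.2 CPM in HFCS and 98.4, 106 and 91.3 CPM in WT. The groups were well apart, at a log2 fold change of -0.56 ± 0.08 (SE, n = 3 each, edgeR adjusted p = 0.000206), and the call held in all 16 alternatives. Its relative Cox7a2l, known for joining complex IV to complex III in supercomplexes, had 292, 297 and 260 CPM in HFCS and 275, 226 and 225 CPM in WT. Those groups overlapped, and Cox7a2l was not called (log2 fold change 0.22, edgeR adjusted p = 0.0640). Per kilobase of exon, Cox7a2 made up 26.9 ± 1.16% of the 7a family in HFCS and 38.8 ± 3.24% in WT, and Cox7a2l made up 72.9 ± 1.20% in HFCS and 60.6 ± 3.05% in WT (SD, n = 3 each). The muscle form Cox7a1 had 15 counts in HFCS and 35 in WT over all 3 libraries of each group and was not tested.

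For subunit 4, Cox4i1 had 351, 347 and 285 CPM in HFCS and 391, 291 and 286 CPM in WT. Its groups overlapped, and its log2 fold change was 0.02 (edgeR adjusted p = 0.905). Cox4i2, the form known from lung and low oxygen, had 0.520, 1.11 and 0.760 CPM in HFCS and 1.32, 1.54 and 0.706 CPM in WT. Its log2 fold change of -0.56 ± 0.43 was not called (edgeR adjusted p = 0.317), and per kilobase it made up 0.480 ± 0.172% of the pair in HFCS and 0.724 ± 0.281% in WT (SD, n = 3 each). Cox7b, a small membrane subunit, averaged 54.7 ± 6.17 CPM in HFCS and 66.1 ± 10.2 CPM in WT (SD, n = 3 each) and was not called, with a log2 fold change of -0.27 (edgeR adjusted p = 0.0836). Cox8a, the widely expressed form of subunit 8, had 212, 222 and 120 CPM in HFCS and 208, 127 and 94.7 CPM in WT. It shows the library differences plainly: HFCS replicate 3 lay with the lower WT libraries and WT replicate 1 with the higher HFCS libraries. Its log2 fold change was 0.37 (edgeR adjusted p = 0.303), and 0.74 without WT replicate 1 (edgeR adjusted p = 0.00508). The remaining isoforms were close to absent and were not tested. Over the libraries of a group, Cox6b2, a testis form, had 13 counts in HFCS and 2 in WT, and Ndufa4l2 had 9 in HFCS and 5 in WT. Cox8b had 3 counts in HFCS and 0 in WT, and Cox7b2 had 0 in HFCS and 2 in WT, all at or under the 3 counts taken as the limit of detection.

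Complex V has a catalytic head, a central stalk that turns inside it, a membrane ring of subunit c and a peripheral stalk. Both head genes were called lower. Atp5b, the catalytic beta subunit, had 1192, 1152 and 1068 CPM in HFCS and 1538, 1401 and 1412 CPM in WT. The groups did not overlap, and its log2 fold change of -0.35 ± 0.07 was the lowest in the complex (SE, n = 3 each, edgeR adjusted p = 0.00186). Its level per kilobase of exon was 268 CPM in HFCS and 342 CPM in WT, the highest of the 80 genes in WT. Atp5a1, the alpha subunit, had a log2 fold change of -0.17 (edgeR adjusted p = 0.0397), and 8 of 16 alternatives lost its call. The rotor subunit Atp5c1, the peripheral stalk subunit Atp5h and the small membrane subunit Atp5l were lower at -0.24, -0.32 and -0.31. The calls of Atp5b, Atp5c1 and Atp5h held in all 16 alternatives.

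The ring of subunit c is encoded by 3 genes whose mature proteins are the same. Atp5g2, the most abundant of them, had 262, 268 and 264 CPM in HFCS and 218, 182 and 200 CPM in WT. Every HFCS library was above every WT library, with a log2 fold change of 0.40 ± 0.07 (SE, n = 3 each, edgeR adjusted p = 0.00124), and the call held in all 16 alternatives. Atp5g3 had 78.1, 83.3 and 66.3 CPM in HFCS and 89.3, 74.1 and 58.7 CPM in WT, with a log2 fold change of 0.04. Atp5g1 had 15.5, 19.1 and 12.7 CPM in HFCS and 20.8, 20.8 and 17.5 CPM in WT, with a log2 fold change of -0.33. Both sets of groups overlapped, and neither gene was called (edgeR adjusted p = 0.853 and 0.110). A copy of Atp5g1, Gm10039, held more counts than the gene, and their sum had a log2 fold change of -0.12 (edgeR adjusted p = 0.337). Per kilobase, Atp5g2 made up 80.6 ± 1.85% of the 3 genes in HFCS and 76.0 ± 3.23% in WT.

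Levels were also summed over the nuclear genes of each complex. Complex III summed to 844, 852 and 772 CPM in HFCS and 1049, 947 and 900 CPM in WT, so the groups did not overlap, and the HFCS mean was 14.8% below the WT mean. Complex V summed to 3537, 3540 and 3284 CPM in HFCS and 4107, 3748 and 3701 CPM in WT, also without overlap, at a mean 10.3% lower. As a share of all counts, complex V held 0.363%, 0.362% and 0.338% in HFCS and 0.399%, 0.362% and 0.361% in WT, so the groups overlapped, and they also overlapped when each gene was divided by its exon length. Complex III stayed without overlap on both of these scales, but only narrowly. As a share of counts, HFCS replicate 2 held 0.0871% and WT replicate 3 held 0.0877%. With each gene divided by its exon length, the same libraries summed to 503 and 505 CPM per kilobase. Complex I averaged 2029 ± 104 CPM in HFCS and 2085 ± 213 CPM in WT, and complex IV 1657 ± 222 CPM in HFCS and 1696 ± 305 CPM in WT (SD, n = 3 each). For these the groups overlapped. These sums are dominated by the most abundant members and were given no test.

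**Figure D4:**
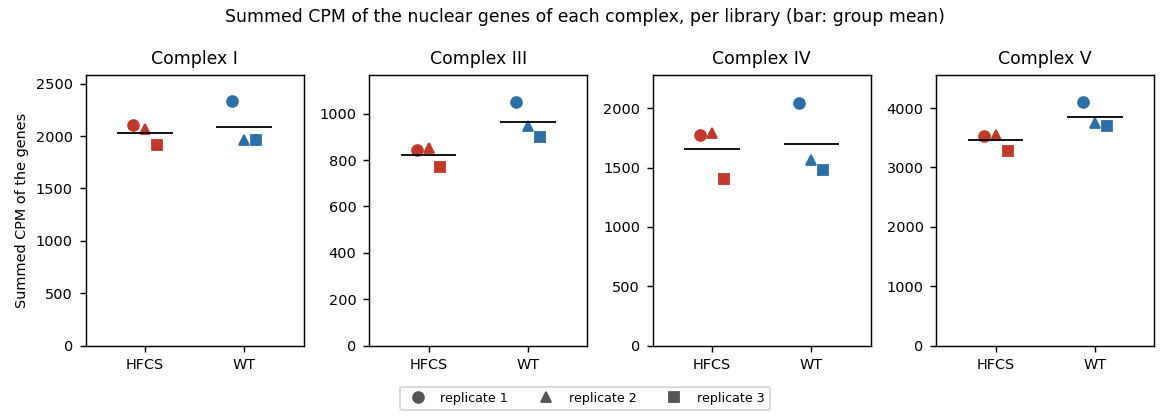
Summed CPM of the nuclear genes of each complex in each library (y axis, from 0), with bars at group means. On this TMM scale HFCS points lie below all WT points for complexes III and V, which for complex V is lost as a share of counts, and overlap with them for complexes I and IV, and WT replicate 1 (circle) is the highest library in every panel.

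Among the subunit genes, the differences between libraries of 1 group were larger in genes of short exon length. This length joins all annotated exons of a gene, so it can exceed that of its main transcript, and Ndufab1 counts as long at 6883 bp. In HFCS, the log2 difference of replicate 3 from the mean of replicates 1 and 2 had a median of -0.355 in the 37 tested subunit genes shorter than their median exon length of 1587 bp and of -0.0846 in the other 38. In WT, replicate 1 differed from the mean of replicates 2 and 3 by 0.439 and 0.139 at the median in the same length classes. Over all tested genes in these classes the medians were smaller, at -0.0866 and 0.0108 for HFCS replicate 3 and 0.109 and -0.0171 for WT replicate 1. Across the 75 genes, the Spearman correlation with exon length was 0.477 for HFCS replicate 3 and -0.549 for WT replicate 1, as a description, since all genes share the same libraries. Ndufa1, a short membrane-arm gene, had 15.9, 17.7 and 13.2 CPM in HFCS and 26.9, 11.2 and 9.46 CPM in WT. Its log2 fold change was -0.02 with all libraries (edgeR adjusted p = 0.958) and 0.60 without WT replicate 1 (edgeR adjusted p = 0.00489). Whether RNA quality or library preparation differed for these 2 libraries was not tested.

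**Figure D5:**
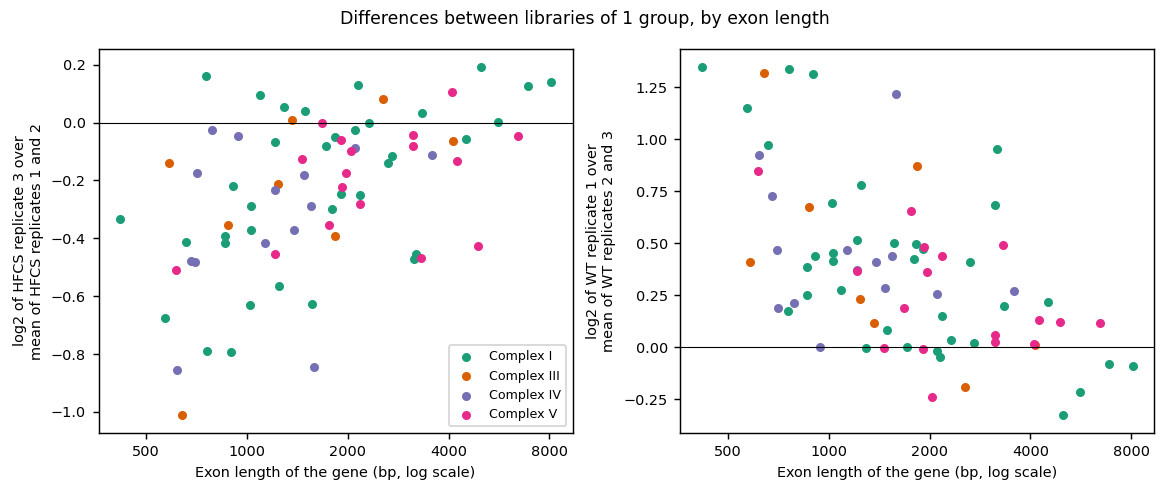
For each tested subunit gene, the log2 ratio of 1 library to the mean of the other 2 of its group (y axis) against exon length in bp (x axis, log scale), coloured by complex, for HFCS replicate 3 (left) and WT replicate 1 (right). The points furthest from 0 are mostly short genes, below it in HFCS replicate 3 (Spearman correlation 0.477) and above it in WT replicate 1 (Spearman correlation -0.549).

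Nuclear respiratory genes are known targets of the transcription factors NRF1, of the ETS factor GABP and of YY1. RefSeq promoter windows (GRCm38.p6, 250 bases before to 50 after the start) matched 64 of the 80 genes. Each motif was searched as letters on both strands. The NRF1 motif, GCGCA and GCGC with 1 free base between them, was in the window of 23.4% of the matched subunit genes, 11.6% of 9867 tested genes and 5.19% of all 27025 windows. The YY1 motif AAGATGGC was in 14.1%, 5.46% and 3.19% in the same order, and the ETS motif CCGGAAG in 21.9%, 20.8% and 9.93%. The last letters of CCGGAAG are the first of AAGATGGC, so 1 stretch can hold both. By complex, the NRF1 motif was in 7 of 32 matched genes of complex I, 1 of 5 of complex III, 1 of 14 of complex IV and 6 of 13 of complex V. The ETS motif was in 4 of 32, 2 of 5, 3 of 14 and 5 of 13 in that order of complexes, and the YY1 motif in 7 of 32, 0 of 5, 0 of 14 and 2 of 13. Among matched genes called lower, 3 of 14 held the NRF1 motif and 5 of 14 the ETS motif, and among those called higher 2 of 5 held the NRF1 motif and 1 of 5 the ETS motif. Beside these, 10 of 41 matched genes that were not called held the NRF1 motif and 8 of 41 the ETS motif. The YY1 motif was in 1 of 14 called lower, 0 of 5 called higher and 8 of 41 not called. A match is a run of letters and not a measured binding site.

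The windows of the 5 genes with the lowest log2 fold changes among those called lower that hold a motif are printed, to show where the letters lie in genes with a called difference. They were picked for holding a motif, so some genes with lower fold changes than Ndufs7 and Uqcrc1 are not among them. Of these, Cox6c had no matched window and was not searched, and Ndufb2, Cox7a2 and Ndufa4 held none of the motifs. Capitals mark the motif, in either orientation. Uqcrh (chr4:116075021-116075320, - strand), Ndufs8 (chr19:3912725-3913024, - strand) and Cox6b1 (chr7:30626065-30626364, - strand) hold the ETS motif, beginning at positions -10, 15 and -28 from the start. Ndufs7 (chr10:80249199-80249498, + strand) holds the YY1 motif from position 24, and Uqcrc1 (chr9:108936398-108936697, + strand) holds the NRF1 motif at 2 places, the first from position 5.
Uqcrh: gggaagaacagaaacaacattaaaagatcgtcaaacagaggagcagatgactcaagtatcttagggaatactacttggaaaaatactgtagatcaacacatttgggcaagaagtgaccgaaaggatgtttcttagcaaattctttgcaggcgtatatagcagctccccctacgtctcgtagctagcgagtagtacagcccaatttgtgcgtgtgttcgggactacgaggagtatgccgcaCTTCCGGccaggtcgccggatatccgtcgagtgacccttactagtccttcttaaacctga
Ndufs8: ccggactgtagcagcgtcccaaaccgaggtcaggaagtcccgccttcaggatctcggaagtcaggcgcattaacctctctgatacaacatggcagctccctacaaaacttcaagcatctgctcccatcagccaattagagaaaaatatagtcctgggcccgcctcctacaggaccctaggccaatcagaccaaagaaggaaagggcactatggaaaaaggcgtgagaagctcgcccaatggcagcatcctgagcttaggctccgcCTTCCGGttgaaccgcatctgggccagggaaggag
Cox6b1: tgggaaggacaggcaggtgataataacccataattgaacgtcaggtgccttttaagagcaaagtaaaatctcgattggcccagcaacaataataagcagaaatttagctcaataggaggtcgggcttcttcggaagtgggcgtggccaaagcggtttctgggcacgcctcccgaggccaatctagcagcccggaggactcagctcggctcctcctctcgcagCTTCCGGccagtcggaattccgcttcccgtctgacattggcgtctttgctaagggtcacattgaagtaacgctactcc
Ndufs7: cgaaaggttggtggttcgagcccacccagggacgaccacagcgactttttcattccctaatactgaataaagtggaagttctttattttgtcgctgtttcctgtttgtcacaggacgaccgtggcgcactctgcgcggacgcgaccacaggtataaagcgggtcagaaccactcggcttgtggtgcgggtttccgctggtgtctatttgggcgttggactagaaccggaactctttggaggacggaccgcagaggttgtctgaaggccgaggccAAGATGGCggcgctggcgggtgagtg
Uqcrc1: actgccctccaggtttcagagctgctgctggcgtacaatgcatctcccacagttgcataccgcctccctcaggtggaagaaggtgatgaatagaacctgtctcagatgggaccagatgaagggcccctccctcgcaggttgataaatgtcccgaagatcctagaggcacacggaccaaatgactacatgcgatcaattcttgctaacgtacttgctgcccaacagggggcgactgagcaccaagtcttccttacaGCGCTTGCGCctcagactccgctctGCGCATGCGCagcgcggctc

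Of 12 tested genes listed as regulators of respiratory chain genes, 6 were called higher and 2 lower, where 22.4% and 22.5% of all tested genes were. The list is mixed, since Tfam, Tfb2m and Polrmt act on the mitochondrial genome and not on the nuclear subunit genes. Polrmt was called higher (log2 fold change 0.38), Tfb2m lower (-0.48), and Tfam was not called. The other lower gene of the list was Pprc1 (-0.19). Gabpb2, which encodes a beta subunit of GABP, averaged 290 ± 9.79 CPM in HFCS and 191 ± 2.21 CPM in WT (SD, n = 3 each; log2 fold change 0.60, edgeR adjusted p = 2.94e-05). Another beta subunit gene, Gabpb1, was also called higher (0.39). Gabpa, which encodes the ETS subunit that binds DNA, was not called (-0.14, edgeR adjusted p = 0.104). Yy1 averaged 194 ± 5.11 CPM in HFCS and 141 ± 4.44 CPM in WT (log2 fold change 0.46, edgeR adjusted p = 0.000191). The coactivator gene Ppargc1a had 2 counts in each group and was not tested.

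Other genes of the chain were read beside the subunits, where 22.4% of all tested genes were called higher and 22.5% lower. In complex II, which links the citric acid cycle to the chain, 2 of 4 genes were lower. Sdhc, a membrane anchor, had 79.0, 78.6 and 75.1 CPM in HFCS and 108, 103 and 101 CPM in WT (log2 fold change -0.42, edgeR adjusted p = 0.000515), and Sdhb, the iron-sulphur subunit, had a log2 fold change of -0.33. Cycs, which encodes the electron carrier cytochrome c, was higher at 97.5 ± 16.7 CPM in HFCS against 67.7 ± 14.2 CPM in WT (SD, n = 3 each; log2 fold change 0.52, edgeR adjusted p = 0.0165). The Cycs groups overlapped, with WT replicate 1 at 83.8 CPM above HFCS replicate 3 at 78.6 CPM. Cyc1, which encodes cytochrome c1, was not called (-0.07). Of 12 tested mitochondrially encoded subunit genes, 2 (16.7%) were called lower, a share below that of all tested genes, and 0 higher. Their log2 fold changes were negative in 11 of 12, with a median of -0.39, although 10 were not called. The oxidase gene mt-Co1 averaged 11840 ± 977 CPM in HFCS and 18361 ± 3526 CPM in WT (SD, n = 3 each; log2 fold change -0.63, edgeR adjusted p = 0.00174), and mt-Nd3 averaged 1.42 ± 0.152 CPM in HFCS and 2.86 ± 0.645 CPM in WT (log2 fold change -1.01, edgeR adjusted p = 0.0134).

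Assembly factors were called in both directions, beside 22.4% higher and 22.5% lower over all tested genes. For complex I, 2 of 17 (11.8%) were higher and 5 (29.4%) lower, led by Tmem186, of a complex that builds the membrane arm, with 24.96, 27.9 and 25.1 CPM in HFCS and 50.5, 45.2 and 43.1 CPM in WT (log2 fold change -0.83, edgeR adjusted p = 7.27e-05), and by Ndufaf7, a mitochondrial methyltransferase, at -0.58. For complex IV, 6 of 21 (28.6%) were higher and 3 (14.3%) lower. Coa7, needed for full oxidase assembly, averaged 13.4 ± 0.905 CPM in HFCS and 5.60 ± 0.480 CPM in WT (SD, n = 3 each; log2 fold change 1.26, edgeR adjusted p = 5.68e-05). Sco1, which helps insert copper, had a log2 fold change of 0.83, while Cox17, the copper chaperone upstream of it, named after its values were seen, had -1.04 (edgeR adjusted p = 0.000157). For complex III, the smallest adjusted p-values among 6 factors were 0.0675 for Uqcc2 (log2 fold change -0.48) and 0.0993 for Uqcc3 (0.56), both above the threshold. For complex V, 1 of 5 was higher, Atpaf1, which places the beta subunit, at 0.55 (edgeR adjusted p = 0.0118), and Atpaf2 had 0.15 and was not called.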

How the data were processed

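Deposited values were raw read counts per gene made by the authors, whole numbers with no normalisation. The submitters' processing notes name CASAVA, HISAT2 2.0.5, featureCounts 1.5.0-p3 and build mm10. The labels state neither annotation release nor strand setting. GENCODE M21 held 24369 of the 24379 gene identifiers and gave names, exon lengths and overlaps. Exon length is the joined length of all annotated exons of a gene, not that of 1 transcript, and levels per kilobase depend on it.

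Genes were filtered with edgeR's filterByExpr (minimum count 10), scaled by TMM and tested with glmQLFit and glmQLFTest (edgeR 4.0.16, R 4.3.3), with Benjamini-Hochberg adjustment over 14360 genes. CPM values use TMM-scaled library sizes. The 16 alternatives were other scalings, DESeq2 1.42.0, limma-voom (limma 3.58.1), other filters, the replicate number as a block, removal of each library's length and GC trend (loess span 0.5), each library left out, and counts summed over near-identical copies, the last chosen after seeing the data. A floor of 3 counts equals 0.196 to 0.229 CPM. The test was checked on simulated data.

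The members and lists were chosen with earlier results of these data known. Full values are given for called genes with a log2 fold change of at least 0.5 in size, the highest and lowest of each complex and the isoforms, and of each companion list the 2 genes with the smallest adjusted p are named. Ndufs7, Uqcrc1 and Ndufa1 were given in full after their values were seen. Cox17, Gabpa, Gabpb1, Polrmt, Tfam, and the copies and overlapping genes were also named after their values were seen. Results for 1 gene are not reported here.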

Additional observations from a re-analysis of the deposited data

How the results depend on the processing

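Of the 25 calls, 14 held under all 16 alternatives (2 higher, 12 lower). Called lower were 18 genes, and 16 to 23 with all 6 libraries under the other settings. Called higher were 7, but 14 with library size alone, 17 with no filter on low counts, 20 with the replicate block and 20 with the length and GC trend removed, where 27.7%, 14.5%, 25.2% and 28.1% of all genes were higher. The share of higher subunit genes was thus below that of all genes with library size alone and above it with no filter. It was near that of all genes with the replicate block and with the trend removed. At 1.5-fold or more there were 3 higher and 4 lower. In complex I, 4 were higher, against 2 with upper-quartile scaling, 9 with library size alone, 12 with no filter, 13 with the replicate block and 15 with the trend removed. The 5 lower of complex I became 8 with upper-quartile scaling and 10 with the trend removed. In complex III the gene called higher, Uqcrq, was lost with DESeq2 (0 of 8). Complex IV had 1 higher, but 2 with library size alone, DESeq2, no filter or the trend removed and 4 with the replicate block. Complex V had 1 higher, but 2 with library size alone, no filter, the replicate block or the trend removed. With 1 library left out in turn, the number of higher genes was 3 to 26 over all subunits, 1 to 17 in complex I, 0 to 1 in complex III, 1 to 4 in complex IV and 1 to 4 in complex V, the highest without WT replicate 1, and 3 to 7 genes of complex I were lower. The log2 fold change of Ndufa1 was -0.02, and -0.287 to 0.602 with 1 library left out. Its sign also differed between the other settings, and of the 16 alternatives only leaving out WT replicate 1 brought it past the threshold. The causes of these shifts were not tested.

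The labels do not state whether the replicate numbers pair the samples. Same-numbered libraries had deviations that correlated at 0.167, -0.0640 and 0.191, the best match for HFCS replicates 1 and 3. HFCS replicate 2 correlated best with WT replicate 1, at 0.163. These correlations cannot settle whether samples were paired. The block result of 20 higher and 23 lower genes is therefore a fit on shared numbers only. Library size alone moved the higher share of all calls to 60.2%, against 49.99% with TMM.

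Depth limits the tissue isoforms: Cox6b2, Cox7a1, Cox7b2, Cox8b and Ndufa4l2 had too few counts to test. Overlapping genes touch 32 of the 80 members, 10 of them called, and near-identical copies touch 21.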
